A study of Homo sapiens with 24 samples.

Results

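The response of HepG2 cells to interferon gamma (IFNγ) in the presence of the BET inhibitor ABBV-075 was measured in 6 of the 24 RNA libraries of the series. These were chosen by their titles: 3 libraries of cells given IFNγ together with 50 nM ABBV-075 were set against 3 libraries of cells given 50 nM ABBV-075 alone, so that by the labels both groups held the inhibitor and differed by the cytokine. HepG2 is a line of hepatocellular carcinoma cells, and all groups are therefore models in 1 tumour line. The series also held 3 libraries each of cells given DMSO, of cells given IFNγ, and of cells given ABBV-744 at 50 nM or 500 nM with and without IFNγ. The study's methods give 12 h for ABBV-075 alone; the length of the combined treatment, the dose of IFNγ and the order of the additions are not given in the sources used here, so the time with the inhibitor may also have differed. Nothing says whether the 3 IFNγ replicates came from separate cultures, so p-values measure the spread between these libraries, which may be technical.

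IFNγ binds a receptor made of IFNGR1 and IFNGR2, whose kinases JAK1 and JAK2 signal to transcription factors in the nucleus. There, GAS elements serve to switch on early genes such as IRF1, a transcription factor that then acts, with complexes that hold IRF9, on ISRE elements. In liver cells the genes raised in this way make the machinery that cuts and loads peptides for HLA class I molecules, guanylate-binding proteins, antiviral proteins and some complement factors. BET proteins are bromodomain readers of acetylated histones that help RNA polymerase leave the promoter. ABBV-075 blocks both bromodomains of these proteins, whereas ABBV-744 is selective for the second. The contrast asks which of these genes still respond to IFNγ while BET proteins are inhibited.

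The counts on genes ranged from 3351138 to 4082506 in the ABBV-075 libraries and from 3409763 to 3996602 in those that also had IFNγ. Of the reads in these 6 files, 56% to 67.4% aligned to several places and were not assigned to a gene. Levels are given as CPM, counts per gene scaled to a common library size with TMM factors over all 24 libraries; CPM is not per length, so levels are compared between samples and not between genes. A gene was taken as at the floor where no library compared had more than 3 counts of it. Replicate 3 of ABBV-075 stood apart: its log2 CPM correlated at 0.9454 to 0.9695 with the other 5 libraries, and counts of calls are therefore also given without it. Replicate 1 of ABBV-075 differed in another way: 56% of its reads aligned to several places, against 64.4% and 67.4% in replicates 2 and 3. Some counts of calls are given without replicate 1 too. HEXIM1, an inhibitor of P-TEFb that BET inhibitors are known to raise, lay at 137, 146 and 152 CPM with ABBV-075 and at 136, 129 and 140.1 CPM with ABBV-075 and IFNγ, above the 44.5 to 57.1 CPM of the 6 libraries without inhibitor. The inhibitor's mark was thus present in both groups compared.

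The genes that mark an IFNγ response were raised in all 3 libraries. IRF1 lay at 12.3, 12.6 and 16.8 CPM with ABBV-075 and at 219, 243 and 211 CPM after IFNγ was added, a log2 fold change of 4.04 (SE 0.17, n = 3 per group, adjusted p = 1.08e-08 by edgeR's quasi-likelihood test). TAP1, a subunit of the transporter that carries peptides into the endoplasmic reticulum, lay at 34.2, 27.5 and 42.7 CPM with ABBV-075 and at 429.8, 476 and 488 CPM with IFNγ, a log2 fold change of 3.77 (SE 0.17, adjusted p = 1.8e-08). The groups were far apart for both genes, and replicate 3 of ABBV-075, the highest of its group for both, did not come near the libraries with IFNγ. Without inhibitor, the means with IFNγ were 228 ± 21.3 CPM for IRF1 and 697 ± 15.6 CPM for TAP1 (SD, n = 3).

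**Figure D1:**
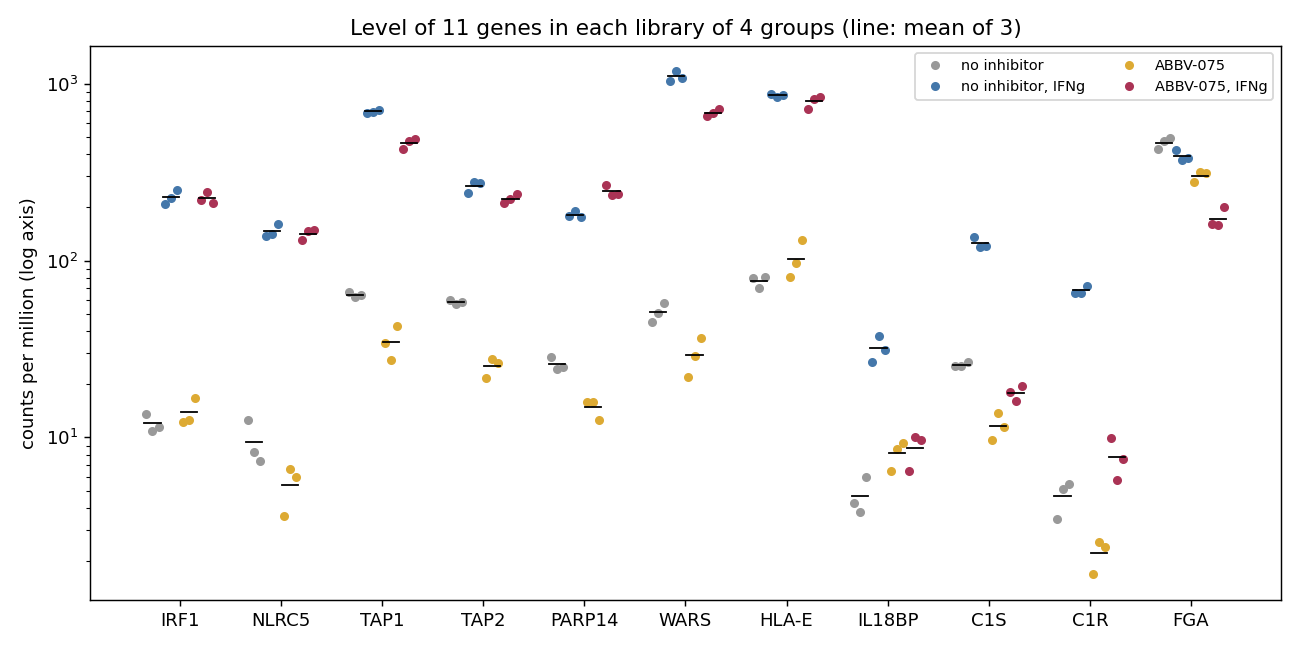
Levels in CPM (log axis) of 11 genes in each library without inhibitor, with IFNγ, with ABBV-075 and with both. Points are libraries and lines are means of 3; IRF1 reached the same range with and without the inhibitor, whereas C1S stayed between 16.0 and 19.6 CPM under ABBV-075 with IFNγ against 119.8 to 135 CPM without inhibitor.

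The promoters of 5 genes that the results turn on were read from RefSeq (GRCh38.p14), each 250 bases before to 50 bases after the start of the gene and read on the strand of the gene. IRF1 and TAP1 mark the response, the responses of TAP2 and PARP14 were larger under ABBV-075 than without it, and that of IL18BP was smaller. Capitals mark matches to a GAS motif, TTCNNNGAA, which reads the same on both strands, or to an ISRE motif, GAAA and again GAAA after any 2 bases, which on the other strand is TTTC, any 2 bases and TTTC. They stand at chr5:132490724-132491023 (minus strand), chr6:32853655-32853954 (minus), chr6:32838690-32838989 (minus), chr3:122680589-122680888 (plus) and chr11:71999367-71999666 (plus), in the order in which they follow.
IRF1: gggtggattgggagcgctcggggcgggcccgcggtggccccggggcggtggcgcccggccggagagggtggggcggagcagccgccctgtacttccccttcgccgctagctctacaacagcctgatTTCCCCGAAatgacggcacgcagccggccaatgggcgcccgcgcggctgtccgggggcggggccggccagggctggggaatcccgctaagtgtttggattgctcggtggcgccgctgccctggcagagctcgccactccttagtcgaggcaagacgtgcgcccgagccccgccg
TAP1: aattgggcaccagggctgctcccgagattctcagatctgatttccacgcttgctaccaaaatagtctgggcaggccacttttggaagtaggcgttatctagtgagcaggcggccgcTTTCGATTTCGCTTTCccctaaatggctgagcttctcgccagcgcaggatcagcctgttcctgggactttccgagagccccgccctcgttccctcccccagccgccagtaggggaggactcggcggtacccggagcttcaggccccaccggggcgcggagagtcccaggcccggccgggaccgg
TAP2: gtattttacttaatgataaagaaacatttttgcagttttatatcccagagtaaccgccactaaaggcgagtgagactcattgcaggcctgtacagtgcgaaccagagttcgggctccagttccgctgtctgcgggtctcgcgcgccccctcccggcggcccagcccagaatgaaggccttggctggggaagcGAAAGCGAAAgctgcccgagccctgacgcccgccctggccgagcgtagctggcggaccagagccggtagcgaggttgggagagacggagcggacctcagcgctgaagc
PARP14: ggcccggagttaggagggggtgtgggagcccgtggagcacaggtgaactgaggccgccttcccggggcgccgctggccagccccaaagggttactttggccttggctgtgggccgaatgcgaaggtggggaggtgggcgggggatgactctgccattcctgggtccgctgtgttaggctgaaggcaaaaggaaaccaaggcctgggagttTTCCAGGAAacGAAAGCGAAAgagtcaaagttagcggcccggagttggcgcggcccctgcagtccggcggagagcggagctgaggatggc
IL18BP: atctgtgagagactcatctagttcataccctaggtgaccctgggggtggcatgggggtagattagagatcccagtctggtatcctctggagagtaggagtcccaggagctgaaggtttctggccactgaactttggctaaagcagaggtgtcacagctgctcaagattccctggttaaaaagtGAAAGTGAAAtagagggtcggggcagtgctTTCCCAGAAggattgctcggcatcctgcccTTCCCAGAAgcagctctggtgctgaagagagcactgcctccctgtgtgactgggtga

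The IRF1 window held 1 GAS match, at position -124 from the start. The TAP1 window held 2 ISRE matches that overlap. TAP2 had 1 ISRE match, PARP14 had a GAS match at -40 and an ISRE match at -29, and IL18BP had 2 GAS matches and 1 ISRE match. RefSeq lists 4 start windows for IL18BP and 2 for TAP1, and the one with most matches was shown for each. The TAP1 window that was not shown held a GAS match, at position -189 from its start. Of all 35116 windows, 7.66% held a GAS match and 3.57% an ISRE match. Windows were found for only 45 of the 65 genes that passed the thresholds described next (69.2%, fewer than 80%), so a share over these genes was void and is not given. A match describes the letters in the window and is not evidence of binding. Matches lay in the windows of TAP2 and PARP14, with larger responses, and in that of IL18BP, with a smaller one. No window was found for C1S, whose response was also smaller.

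Under ABBV-075, IFNγ raised 65 of the 10951 genes tested (0.594%) by a log2 fold change of at least 1.5 with an adjusted p of at most 0.05, and lowered 0. With no limit on the fold, 111 genes rose (1.01%) and 4 fell (0.0365%). By DESeq2 the count of genes lowered at both thresholds was also 0. In the edgeR fit, 1 gene lay at an unadjusted p of at most 0.05 with a log2 fold change of -1.5 or less. In each of the 65 genes every library with IFNγ lay above every library without it, as it did in 5.61% of all genes tested, and the choice of genes by fold and p nearly fixes this count. Of the 65 genes, 63 were protein coding. Some of the 65 passed the filter on low counts only through the libraries with IFNγ, so that their rise was partly fixed by being tested. Where every library had to hold 10 counts, 39 of the 65 were tested and all 39 passed. Leaving out replicate 3 of ABBV-075 gave 80 genes up and 0 down, and leaving out replicate 1 gave 76 up and 2 down. Of the 65, 51 passed with each of the 6 libraries left out in turn. In bulk RNA, fewer cells that carry a transcript and less of it per cell cannot be told apart.

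**Figure D2:**
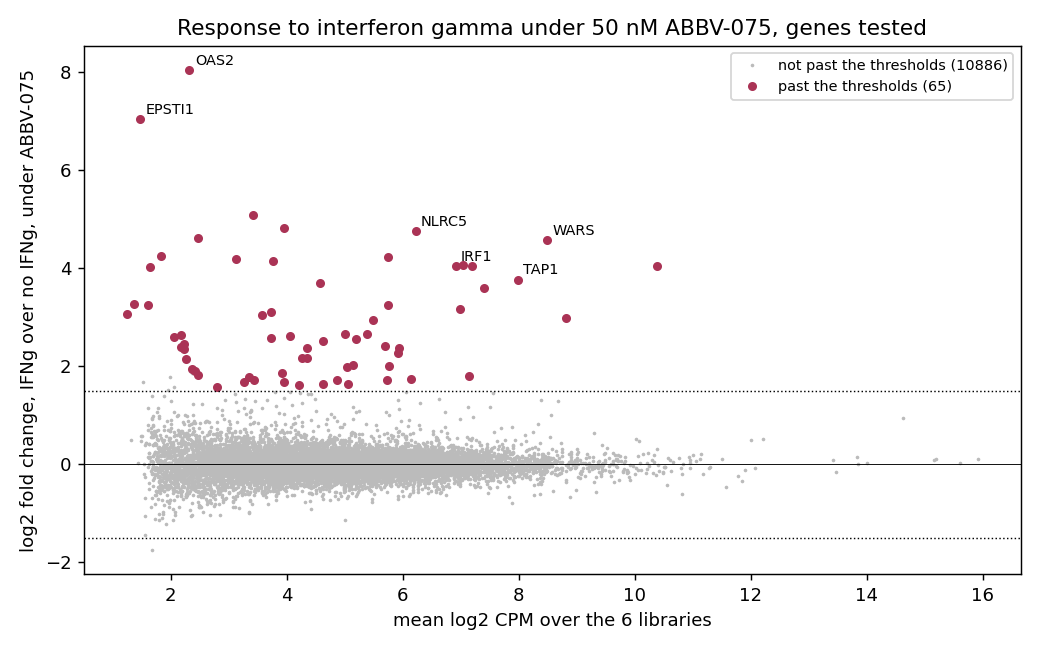
Log2 fold change of IFNγ under ABBV-075 against mean log2 CPM for the 10951 genes tested. Red points are the 65 genes past both thresholds, all above the upper dotted line at 1.5; the fitted values of OAS2 and EPSTI1, which had 0 counts without IFNγ, depend on the prior count of the fit.

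Genes were also read by 17 lists of known roles, and the lists split into some in which most tested members rose and others in which few or none did. The median log2 fold change over all genes tested was 0.00, against which each list's median can be read.

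**Figure D3:**
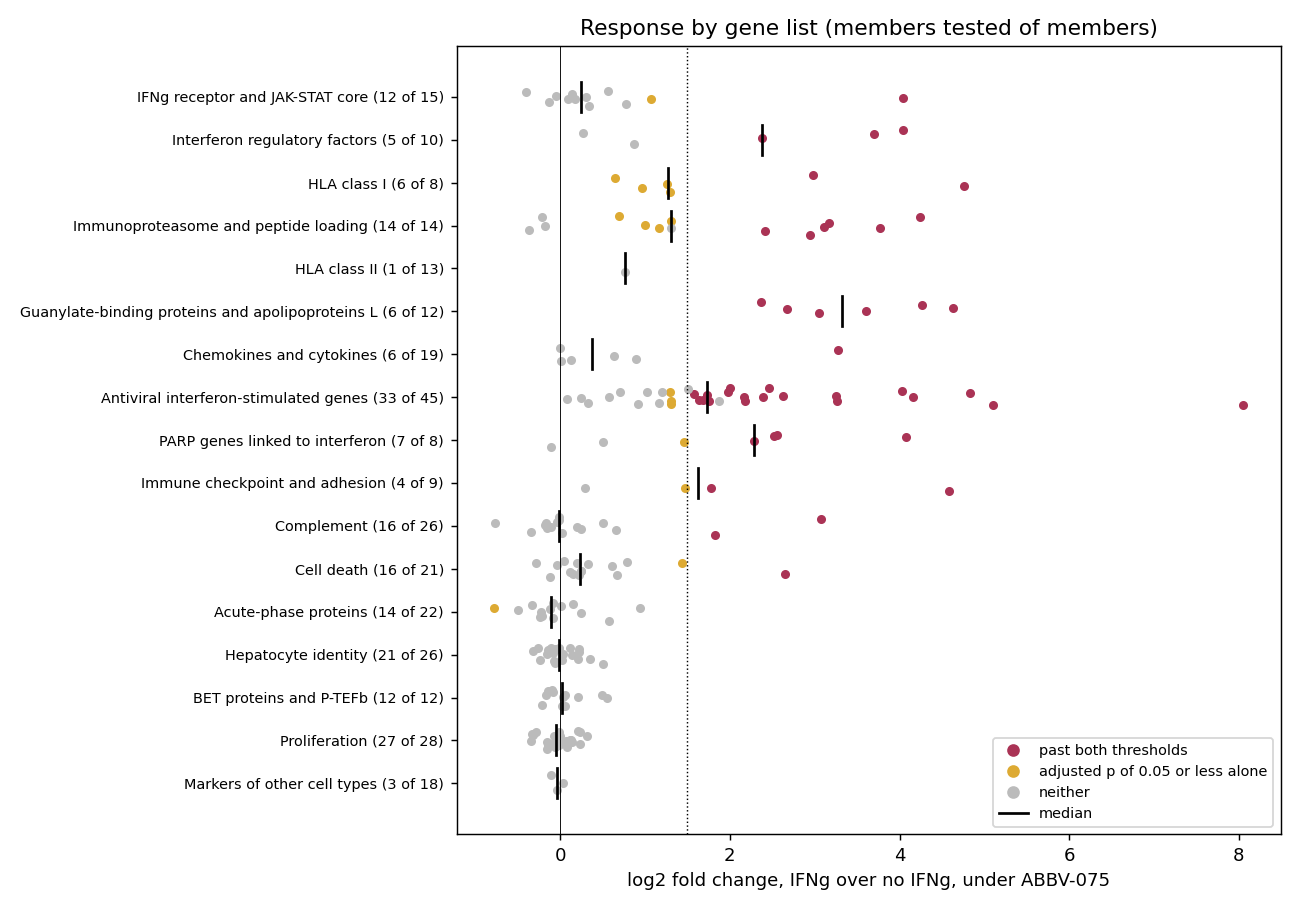
Log2 fold change of IFNγ under ABBV-075 for the tested members of 17 gene lists, with the number tested of the number in the list. Red points passed both thresholds, yellow points the adjusted p alone, and the black bar is the median; all 6 tested guanylate-binding proteins and apolipoproteins L lay above the dotted line at 1.5, and no tested member of the hepatocyte, BET or proliferation lists did.

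The list of the receptor and its signalling chain had 15 genes, of which 12 were tested, with a median log2 fold change of 0.24. STAT2, part of the complex that binds ISREs, rose from 27.7, 30.1 and 43.9 CPM to 66.1, 74.5 and 68.1 CPM (log2 fold change 1.07, SE 0.18, adjusted p = 0.00865), and so passed by adjusted p alone. The receptor and kinase genes did not pass: the log2 fold changes were 0.14 for IFNGR1 (adjusted p = 0.891), 0.09 for IFNGR2 (adjusted p = 0.937), -0.40 for JAK1 (adjusted p = 0.36) and 0.34 for JAK2 (adjusted p = 0.802). SOCS1, which feeds back on JAK kinases, had 14.0, 12.9 and 14.7 CPM without and 22.9, 26.6 and 20.8 CPM with IFNγ, and its log2 fold change of 0.78 missed the threshold (adjusted p = 0.0818). Without replicate 3 of ABBV-075, SOCS1 passed by adjusted p (0.84, adjusted p = 0.0215), as did JAK1 with a fall (-0.47, adjusted p = 0.0313). SOCS1 also passed with the replicate block, but not with the GC correction (0.56, adjusted p = 0.165). Without replicate 2 of ABBV-075 neither gene passed (adjusted p = 0.438 for SOCS1 and 0.995 for JAK1).

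Of the interferon regulatory factors and related factors, 5 of 10 were tested and 3 rose, IRF1, IRF9 and BATF2, with a list median of 2.38. IRF9, the DNA-binding part of the complex on ISREs, rose from 18.5, 20.1 and 20.4 CPM to 95.9, 107 and 98.0 CPM (log2 fold change 2.38, SE 0.15, adjusted p = 6.38e-07). BATF2, a leucine zipper factor induced by interferons, went from 1.68, 3.44 and 5.11 CPM to 36.5, 53.0 and 38.6 CPM (log2 fold change 3.70, SE 0.31, adjusted p = 9.88e-06). IRF2, which can oppose IRF1 at its sites, had a log2 fold change of 0.87 that missed the threshold (adjusted p = 0.0836). It passed by adjusted p without replicate 3 of ABBV-075 (0.80, adjusted p = 0.0422) and with a correction for GC content (0.95, adjusted p = 0.00591). Of the 5 members that were not tested, 4 were at the floor in both groups.

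Genes of antigen presentation by HLA class I rose both among the HLA genes and in the machinery that makes and loads peptides, although not in every member. In the list of class I genes, all 6 of the tested members out of 8 rose by adjusted p and 2 of them past both thresholds, with a median of 1.28. Of those not tested, HLA-G was at the floor. HLA-F showed no rise, at 2.89, 2.29 and 2.41 CPM with ABBV-075 and 2.24, 2.72 and 2.41 CPM with IFNγ. NLRC5, the transactivator of class I genes, rose from 3.61, 6.59 and 6.01 CPM to 131, 147 and 148 CPM (log2 fold change 4.76, SE 0.21, adjusted p = 1.67e-08). HLA-E, whose product is read by natural killer cells, rose from 80.4, 96.5 and 130.2 CPM to 718, 822 and 841 CPM (log2 fold change 2.98, SE 0.18, adjusted p = 4.87e-07). Classical class I genes rose by less than the limit on the fold, with log2 fold changes of 1.26 for HLA-B (adjusted p = 0.000866) and 0.96 for HLA-C (adjusted p = 0.00324). B2M, the light chain that all class I molecules share, rose by a log2 fold change of 1.29 (SE 0.14, adjusted p = 9.83e-05). HLA-B and HLA-C are similar in sequence, and reads that fit both could have been left out of the counts.

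In the immunoproteasome and peptide loading list, all 14 members were tested, 10 rose by adjusted p and 6 past both thresholds, with a median of 1.31. The 3 catalytic subunits that replace those of the ordinary proteasome rose: PSMB9 by 4.24 on the log2 scale (adjusted p = 4.32e-07), PSMB8 by 3.11 (adjusted p = 5.84e-06) and PSMB10 by 2.42 (adjusted p = 2.81e-06). The proteasome activator genes rose by less, PSME1 by 0.69 (adjusted p = 0.0255) and PSME2 by 1.31 (adjusted p = 3.59e-05). TAP2, the partner of TAP1, rose from 21.7, 27.8 and 26.5 CPM to 210.2, 224 and 238 CPM (log2 fold change 3.17, SE 0.16, adjusted p = 4.71e-08). ERAP2, which trims peptides, rose by 2.94 (SE 0.19, adjusted p = 6.92e-07), more than its relative ERAP1 at 1.00 (SE 0.13, adjusted p = 0.00102). The general chaperone CALR, also in the list, had a log2 fold change of -0.18 (adjusted p = 0.841).

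TAP1, TAP2, PSMB8, PSMB9 and the lncRNA PSMB8-AS1 are neighbours at chr6:32821833-32859851 (GRCh38, GENCODE), and all 5 rose. PSMB8-AS1 lay at 0, 1.72 and 0.902 CPM with ABBV-075 and at 14.7, 15.2 and 16.3 CPM with IFNγ (log2 fold change 4.19, SE 0.45, adjusted p = 0.000122). It overlaps TAP1 on the opposite strand, and the counts used were those of 1 strand from a directional library. Other neighbours within 100000 bases among the 65 were IFIT1, IFIT2, IFIT3 and IFIT5 at chr10:89283694-89421605, APOL1, APOL2 and APOL3 at chr22:36140329-36267530, and 6 pairs. Neighbours of this kind should not be read as independent of each other.

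Most HLA class II genes were too low to be tested at this depth. Of its 13 list members, 1 was tested and 11 of the other 12 were at the floor in both groups. CD74, the invariant chain, lay at 14.9, 22.3 and 30.1 CPM with ABBV-075 and at 37.8, 37.0 and 36.5 CPM with IFNγ, a log2 fold change of 0.76 that missed the threshold (adjusted p = 0.249). It passed by adjusted p without replicate 3 of ABBV-075 (1.04, adjusted p = 0.000633), with the GC correction (0.79, adjusted p = 0.012) and with no filter on low counts (adjusted p = 0.0153). CIITA, the master regulator of class II genes, had 0 counts in each library with ABBV-075 and 2 to 5 counts in those with IFNγ, too few to be tested. Its mean of 0.92 CPM with IFNγ was at least 1.11-fold higher, as set against the floor of 3 counts per library that is used for all such bounds.

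The guanylate-binding proteins, GTPases that attack the compartments of intracellular pathogens, and the apolipoproteins L formed the list with the highest median, 3.32. Of 12 members, 6 were tested and all 6 rose past both thresholds. Of these, GBP1 and APOL3 had at most 2 counts per library with ABBV-075 and passed the filter only through the libraries with IFNγ. Their rise was partly fixed in this way, and the count and median describe only the members tested. APOL6 rose from 28.9, 23.8 and 25.3 CPM to 324, 308 and 298 CPM (log2 fold change 3.60, SE 0.14, adjusted p = 9.11e-09), and APOL2 from 11.3, 12 and 10.5 CPM to 71.6, 70.4 and 70.8 CPM (log2 fold change 2.67, SE 0.16, adjusted p = 3.32e-07). GBP2 rose from 2.89, 2.01 and 2.41 CPM to 23.4, 19.0 and 18.1 CPM (log2 fold change 3.05, SE 0.25, adjusted p = 1.02e-05). These members went from low to moderate levels. GBP1 had 3 counts in all with ABBV-075 and lay at 4.47, 7.07 and 5.73 CPM with IFNγ (adjusted p = 0.000722). GBP3, GBP4 and GBP5 had too few counts to be tested and passed once no filter on low counts was used. GBP4 had 0 counts with ABBV-075 and 10 to 18 counts with IFNγ, at least 4.35-fold higher. Members that were filtered out for low counts are missing from the list's median.

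The antiviral genes were the longest list, with 33 of 45 members tested, 19 up past both thresholds and a median of 1.73. OAS2, which makes the activator of RNase L, had 0 counts in the 3 libraries with ABBV-075 and lay at 7.20, 12.2 and 7.23 CPM with IFNγ, at least 10.7-fold higher (adjusted p = 0.00022). IFIT3, of a family that binds viral RNA, rose from 1.44, 0.286 and 1.20 CPM to 34.8, 28.8 and 22.9 CPM (log2 fold change 4.83, SE 0.34, adjusted p = 2.28e-06). XAF1, which promotes apoptosis, rose from 0.722, 0.859 and 0 CPM to 25.6, 17.9 and 14.5 CPM (log2 fold change 5.10, SE 0.45, adjusted p = 1.89e-05). These genes had almost no transcript before IFNγ. They passed the filter on low counts only through the libraries with IFNγ, so their rise was partly fixed by being tested. Other members had more transcript to begin with: IFI35 rose by 2.00 (SE 0.16, adjusted p = 6.13e-06), UBE2L6, which attaches ISG15 to proteins, by 3.26 (SE 0.23, adjusted p = 2.08e-06), and ISG15 itself by 1.75 (SE 0.21, adjusted p = 0.000295). IFIT5 and DDX58 rose past both thresholds with all libraries, at 1.64 (adjusted p = 0.00267) and 1.73 (adjusted p = 0.00238). Without replicate 3 of ABBV-075 their log2 fold changes were 1.39 and 1.46, under the limit of 1.5. OAS1 rose by 1.68 (adjusted p = 0.0143), and this call was lost without replicate 1 of ABBV-075 (1.45) and without replicate 1 of the libraries with IFNγ (1.42).

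Among the PARP genes linked to interferon, 7 of 8 were tested and 4 rose past both thresholds, with a median of 2.28. PARP14, which modifies proteins with ADP-ribose, rose from 15.9, 15.8 and 12.6 CPM to 267, 235 and 238 CPM (log2 fold change 4.08, SE 0.15, adjusted p = 9.11e-09). PARP9 and its partner DTX3L, neighbours on chromosome 3, rose by 2.55 (SE 0.19, adjusted p = 3.86e-06) and 2.28 (SE 0.18, adjusted p = 5.76e-06). PARP10 rose by 2.52 (SE 0.22, adjusted p = 1.81e-05), and PARP12, at 1.46 (adjusted p = 0.000548), passed by adjusted p alone. PARP12 crossed the limit on the fold without replicate 1 of ABBV-075 (1.52) and without replicate 2 or 3 of the libraries with IFNγ.

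WARS, the tryptophanyl-tRNA synthetase, was placed in the checkpoint and adhesion list and was among its 2 members, of 4 tested and 9 in all, that rose past both thresholds. It lay at 22.1, 28.9 and 36.7 CPM with ABBV-075 and at 655, 679 and 717 CPM with IFNγ (log2 fold change 4.58, SE 0.19, adjusted p = 9.37e-09). CD40, a costimulatory receptor, was the other, from 4.09, 3.44 and 5.71 CPM to 11.9, 13.1 and 19.9 CPM (log2 fold change 1.78, SE 0.29, adjusted p = 0.006). Its call was lost without replicate 2 of ABBV-075 (log2 fold change 1.64, adjusted p = 0.0617). ICAM1, an adhesion molecule, rose by 1.47 (adjusted p = 0.00111), under the limit on the fold, which it passed without replicate 2 (1.52) or 3 (1.65) of ABBV-075 or replicate 1 of the libraries with IFNγ (1.60). CD274, which encodes PD-L1, was not tested, at 0.241, 0 and 0 CPM with ABBV-075 and 0.994, 1.36 and 0.904 CPM with IFNγ.

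Few cytokine genes could be tested. Of 19 chemokines and cytokines, 6 were tested and 1 rose, IL15RA, the chain that presents IL-15, from 0.481, 0.286 and 0.301 CPM to 3.23, 3.54 and 4.52 CPM (log2 fold change 3.27, SE 0.49, adjusted p = 0.00267). IL15RA passed the filter on low counts only through the libraries with IFNγ. Of the 13 not tested, 9 were at the floor in both groups, and IL7 and IL15 passed both thresholds once no filter on low counts was used. IL15 had 0 counts with ABBV-075 and 5 to 16 counts with IFNγ, at least 2.98-fold higher. IL7 lay at 1.44, 1.72 and 0.601 CPM with ABBV-075 and at 5.71, 4.89 and 2.41 CPM with IFNγ, and its adjusted p was 0.0184 with no filter but 0.331 by DESeq2.

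In the complement list, 16 of 26 members were tested, 2 rose past both thresholds and the median was -0.02. SERPING1, the inhibitor of the C1 complex, rose from 0.481, 0.286 and 0.301 CPM to 3.23, 2.99 and 3.62 CPM (log2 fold change 3.08, SE 0.48, adjusted p = 0.0041), but DESeq2 gave an adjusted p of 0.0628. C1R, a protease of the C1 complex, rose from 1.68, 2.58 and 2.41 CPM to 9.94, 5.71 and 7.53 CPM (log2 fold change 1.83, SE 0.33, adjusted p = 0.0129). That call was lost without replicate 2 of ABBV-075 (1.96, adjusted p = 0.0615) and without replicates 1 and 3 of the libraries with IFNγ (1.61, adjusted p = 0.0862, and 1.86, adjusted p = 0.0722). C1R overlaps C1RL on the same strand. Both SERPING1 and C1R passed the filter on low counts only through the libraries with IFNγ. The central component C3 had a log2 fold change of -0.17 (adjusted p = 0.898) and factor B (CFB) one of 0.50 (adjusted p = 0.0896), which passed by adjusted p without replicate 3 of ABBV-075 (0.55, adjusted p = 0.00354), with the GC correction and by DESeq2 (0.51, adjusted p = 0.039).

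Of 21 cell death genes, 16 were tested, 1 rose past both thresholds and the median was 0.23. TNFSF10, the death ligand TRAIL, rose from 1.44, 0.859 and 0.902 CPM to 5.96, 8.16 and 6.63 CPM (log2 fold change 2.65, SE 0.36, adjusted p = 0.00113). CASP4, an inflammatory caspase, rose by 1.44 (adjusted p = 0.000981) and passed the limit on the fold without replicate 2 of ABBV-075 (1.55) or replicate 1 of the libraries with IFNγ (1.53). CASP8, which starts the extrinsic pathway of apoptosis, missed the threshold at 0.61 (adjusted p = 0.141) and passed by adjusted p without replicate 3 of ABBV-075 (0.66, adjusted p = 0.0464) and with the GC correction (adjusted p = 0.0232).

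The 4 genes that fell, none of them by a log2 fold change of 1.5, were FGA, ODC1, EIF3L and EIF4B. The last 3 belong to no list and were chosen after their values were seen. FGA, the fibrinogen alpha chain and the only acute-phase member of 14 tested that passed, fell from 278, 317 and 311 CPM to 160.5, 158 and 199.5 CPM (log2 fold change -0.78, SE 0.14, adjusted p = 0.00999). HAMP, the iron hormone hepcidin, had too few counts to be tested, at 2.65, 3.72 and 5.41 CPM with ABBV-075 and 1.24, 0.816 and 1.21 CPM with IFNγ, and fell past both thresholds once no filter was used (-1.77, adjusted p = 0.0405), but not by DESeq2 (adjusted p = 0.411). ODC1, which starts polyamine synthesis, had a log2 fold change of -0.67 (adjusted p = 0.0243). The translation factors EIF3L and EIF4B had log2 fold changes of -0.66 (adjusted p = 0.0368) and -0.54 (adjusted p = 0.0388).

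The identity of the cells showed no shift that passed the test. Of 26 hepatocyte genes, 21 were tested and 0 passed, with log2 fold changes of -0.08 for ALB (adjusted p = 0.94), 0.21 for APOA1 (adjusted p = 0.804) and -0.06 for HNF4A (adjusted p = 0.944). The 3 genes were expressed in all 6 libraries, ALB between 2004 and 3044 CPM. None of the 27 proliferation genes tested and none of the 12 BET and P-TEFb genes passed either, with medians of -0.05 and 0.02. In the proliferation list, TOP2A, needed to separate chromosomes, lay at 955, 704 and 356 CPM with ABBV-075 and at 865, 736 and 716 CPM with IFNγ, so that replicate 3 alone accounted for most of its spread. Of 18 markers of other cell types, 3 were tested and 0 passed, and 13 of the other 15 were at the floor. LYZ, a marker of myeloid cells, was an exception in level at 1092 to 1342 CPM over the 6 libraries, but its log2 fold change was 0.03 (adjusted p = 0.975).

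Of the 65 genes that rose, 18 belong to no list and were chosen after their values were seen. EPSTI1, an interferon-induced gene, had 0 counts with ABBV-075 and lay at 3.98, 5.44 and 3.92 CPM with IFNγ, at least 5.37-fold higher (adjusted p = 0.0008). UBD, a ubiquitin-like modifier that directs proteins to the proteasome, rose from 19.0, 13.2 and 18.6 CPM to 296, 283 and 247 CPM (log2 fold change 4.04, SE 0.17, adjusted p = 9.7e-09). TNFRSF14, a receptor of the TNF family, rose by 2.59 (SE 0.23, adjusted p = 2.26e-05), TGM2, a transglutaminase, by 2.67 (SE 0.22, adjusted p = 1.12e-05) and RNF213, a large ubiquitin ligase, by 1.81 (SE 0.17, adjusted p = 2.57e-05).

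The response was then set against that of cells without inhibitor, which shares no library with it. There, 92 of 11217 genes rose past the thresholds (0.82%). Rises past the thresholds in both responses numbered 51, which is 78.5% of the 65 and 55.4% of the 92. Passing in one response and not in the other does not show a difference, so the difference was tested for each gene as an interaction in a fit of the 12 libraries. It passed an adjusted p of 0.05 in 4 of 11530 genes (0.0347%): PARP14 and TAP2, whose responses were larger under ABBV-075, and IL18BP and C1S, whose responses were smaller. The count depended on replicate 1 of ABBV-075, without which 83 genes had a larger and 117 a smaller response, and on replicate 3, without which 10 had a larger one. DESeq2 gave 7 in each direction, and a correction for GC content gave 16 larger and 11 smaller. Over the 106 genes that rose in either response, the difference was positive in 51 and negative in 55, and it lay at an unadjusted p of at most 0.05 in 35.8% of them against 6.72% of all genes. As these genes were chosen for a large rise in one of the responses compared, which favours a difference, the shares are a description only. The 95% interval reached, in the median over these genes, 0.79 on the log2 scale to either side of the difference. It is not adjusted for the number of genes tested and is not a limit of detection. Larger differences, such as that of C1R given below, also missed the adjusted threshold.

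For IRF1 and TAP1 no difference passed. It was -0.25 for IRF1 (95% interval -0.68 to 0.18, adjusted p = 0.83) and 0.29 for TAP1 (-0.06 to 0.64, adjusted p = 0.769). WARS differed by 0.12 (-0.27 to 0.51, adjusted p = 0.915). These intervals bound the difference and do not show that the responses were equal.

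**Figure D4:**
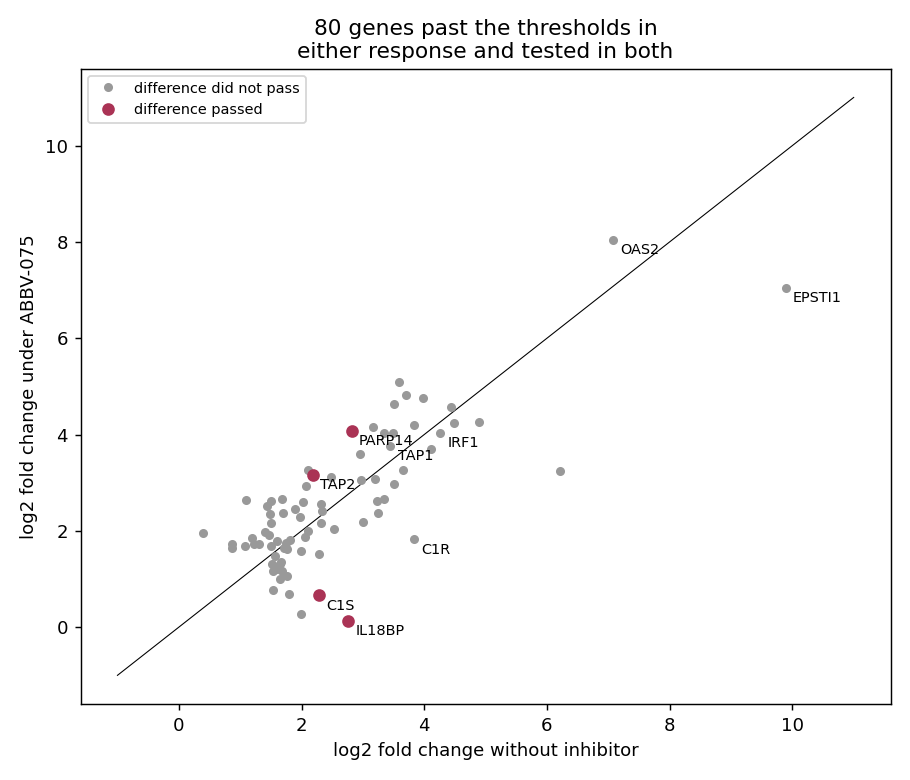
Log2 fold change of IFNγ under ABBV-075 against that without inhibitor for the 80 genes past the thresholds in either response and tested in both; the line marks equal values. Red points are the 4 genes whose difference passed, PARP14 and TAP2 above the line and IL18BP and C1S below it.

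PARP14 rose in both responses, and under ABBV-075 it started lower and ended higher. It lay at 28.5, 24.3 and 25.1 CPM with DMSO and at 179, 191 and 176 CPM with IFNγ alone, a log2 fold change of 2.82 against 4.08 under ABBV-075. The difference was 1.23 (95% interval 0.87 to 1.59, adjusted p = 0.00271) and passed with each of the 12 libraries left out in turn. With ABBV-744 PARP14 also started lower and ended higher than without inhibitor, so this was not particular to ABBV-075. Its means without and with IFNγ were 17.6 and 376 CPM at 50 nM ABBV-744, and 15.4 and 351 CPM at 500 nM. TAP2 started lower and ended somewhat lower: it lay at 60.1, 56.9 and 58.5 CPM with DMSO and at 241, 277 and 276 CPM with IFNγ alone, a log2 fold change of 2.18 against 3.17. Its difference of 0.96 (0.63 to 1.30, adjusted p = 0.0223) was less firm. The value stayed between 0.85 and 1.03 with 1 library left out, but the adjusted p rose to between 0.0551 and 0.128 without any one of DMSO 1, 2 or 3, IFNγ 1, 2 or 3, or replicate 2 or 3 of ABBV-075 with IFNγ.

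IL18BP, the secreted decoy that binds IL-18, responded to IFNγ without inhibitor and did not pass under ABBV-075. It lay at 4.26, 3.79 and 5.97 CPM with DMSO and at 26.8, 37.6 and 31.1 CPM with IFNγ alone (log2 fold change 2.76, SE 0.21, adjusted p = 2.4e-13). With ABBV-075 it lay at 6.5, 8.59 and 9.32 CPM, and with both at 6.46, 10.1 and 9.64 CPM, so that the groups overlapped (log2 fold change 0.13, 95% interval -0.45 to 0.71, adjusted p = 0.944). The difference was -2.67 (-3.40 to -1.94, adjusted p = 0.00131) and passed with each library left out in turn. IL18BP overlaps NUMA1 on the opposite strand.

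C1S, the protease that C1R activates, went the same way. It lay at 25.3, 25.4 and 26.7 CPM with DMSO and at 135, 119.8 and 121 CPM with IFNγ alone (log2 fold change 2.28, SE 0.11, adjusted p = 2.24e-19). With ABBV-075 it lay at 9.62, 13.8 and 11.4 CPM, and with both at 18.1, 16.0 and 19.6 CPM (0.66, 95% interval 0.21 to 1.10, adjusted p = 0.3). The difference was -1.66 (-2.11 to -1.21, adjusted p = 0.00131) and also passed with each library left out. With ABBV-744 the means of C1S without and with IFNγ were 20.5 and 51.8 CPM at 50 nM, and 17.3 and 41.7 CPM at 500 nM. Under both compounds C1S with IFNγ thus lay below its level with IFNγ alone. C1R, next to it on chromosome 12, had a difference of -2.03 (-2.89 to -1.17) that missed the threshold (adjusted p = 0.108). IRF9, at -0.91 (adjusted p = 0.107), C4BPA, an inhibitor of C4b, at -1.07 (adjusted p = 0.101), and APOL2, at 0.96 (adjusted p = 0.108), also missed it. Each of the 4 passed without replicate 1 of ABBV-075, with adjusted p from 0.00322 to 0.0245, and by DESeq2, with adjusted p from 0.0143 to 0.0335.

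Folds and levels were then set side by side. Of the 92 genes that rose without inhibitor, 68 had enough counts to be tested under ABBV-075. All 68 had a log2 fold change above 0 there, as had 50.5% of all genes tested, with a median of 2.44 (2.42 with the genes at 0 without IFNγ placed at their bound), and 51 passed the thresholds. Some of the 68 passed the filter on low counts only through the libraries with IFNγ, so these values describe the genes that passed and support nothing about the 92. The levels with IFNγ were lower under the inhibitor in most of the genes: in 70 of the 92 genes the 3 libraries with ABBV-075 and IFNγ all lay below the 3 with IFNγ alone, in 6 they all lay above, and the median ratio of the mean CPM was 0.483 (quartiles 0.256 and 0.812). Over the 11476 genes with a mean of at least 2 CPM in the libraries with IFNγ, 29.9% lay below in this way and 30.3% above, with a median ratio of 1.01. The 92 genes were chosen for being high with IFNγ alone, which favours the direction seen, and the count is given as a description. Before IFNγ, 46 of the 92 lay below with ABBV-075 and 5 above, against 25.1% below and 24.2% above of the 11445 genes with a mean of at least 2 CPM in those libraries. The time with DMSO may have differed from that with ABBV-075.

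**Figure D5:**
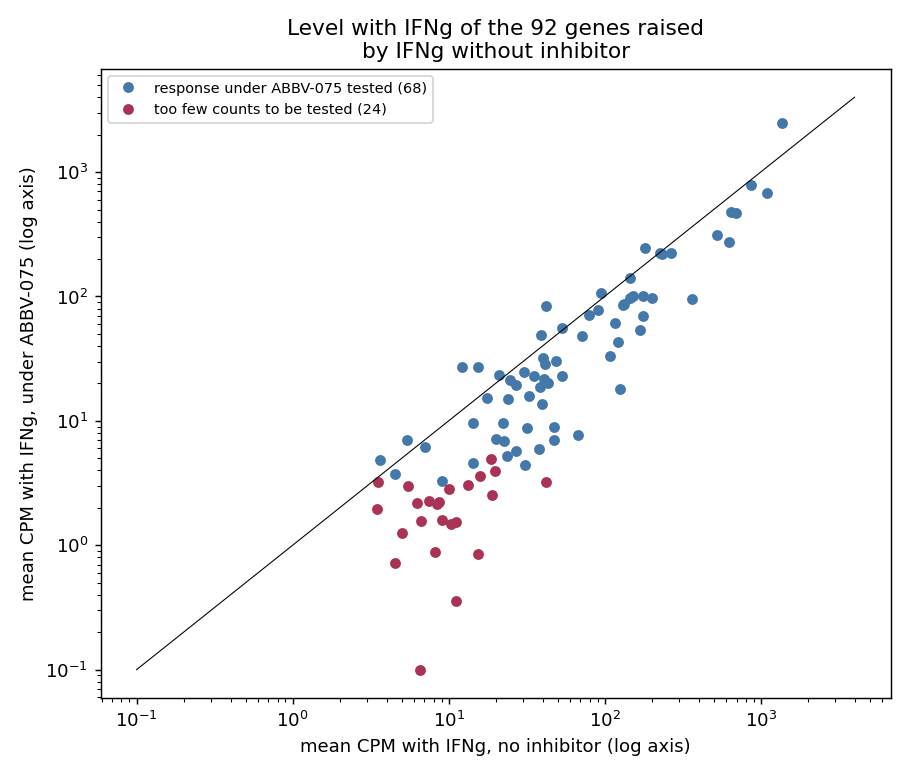
Mean CPM with IFNγ under ABBV-075 against mean CPM with IFNγ and no inhibitor (log axes) for the 92 genes that rose without inhibitor; the line marks equal levels. The 24 genes with too few counts to be tested under ABBV-075 (red) lie below the line, with a median ratio of 0.226.

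The other 24 genes had too few counts under ABBV-075 to be tested, and as they were set apart by low counts there, a low ratio was partly fixed by the filter. Their highest count in any library with ABBV-075 and IFNγ was 24, and 3 of them had 3 counts or fewer in every library. In 19 of the 24 each library with IFNγ was above each library without it. This held for 7.67% of the 2085 untested genes whose highest count was 4 to 24, a set that leaves out those 3 genes. With no filter on low counts 12 of the 24 passed the thresholds, in a fit where 95 genes rose past them. The 24 had been chosen for a rise with IFNγ without inhibitor. Those from the lists include TRIM22, an antiviral ubiquitin ligase, with a mean of 41.9 CPM with IFNγ alone and 3.21 CPM with both. They also include GBP4 at 16.0 and 3.60 CPM, CMPK2, a mitochondrial kinase, at 13.4 and 3.05 CPM, and CASP1, the protease of the inflammasome, at 8.13 and 0.887 CPM. IFITM1, which blocks virus entry, lay at 11.1 CPM with IFNγ alone and at 1 or 2 counts in each library with both. The same held for OAS2 and EPSTI1 among the tested genes, which reached means of 8.89 and 4.44 CPM under ABBV-075 against 47.4 and 30.7 CPM without it. Genes of this kind could be counted among the 65 only where they passed the filter on low counts.

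Last, the response was compared with that under ABBV-744 at the same dose of 50 nM, the 1 pair of compounds with a matched dose. Of the 65 genes, 64 were tested there, all 64 were higher with IFNγ, and 51 passed, where 5.11% of all genes passed (0.956% with the GC correction described next). The median was 2.69 on the log2 scale. At 500 nM ABBV-744, another dose, 63 were tested and 56 passed, with a median of 2.62, where 1.99% of all genes passed (0.846% with the GC correction). The difference between the responses at 50 nM passed in 4025 of 11380 genes (35.4%), and across genes it went with GC content: Pearson's r between the difference and the GC percent of a gene was 0.76 over 11203 genes, where genes are not independent replicates. The same r was 0.03 for the response under ABBV-075, -0.67 for that under ABBV-744 at 50 nM and -0.52 for that at 500 nM. It was 0.16 for the response without inhibitor, and -0.14 for the difference between the response under ABBV-075 and that one. Against ABBV-744 at 50 nM, the response was larger under ABBV-075 in 1714 of the 11380 genes and smaller in 2311. However, scaling by library size alone moved the median of this difference over all genes from 0.055 to -0.121 and gave 895 and 2855. With a correction for GC content in the fit, 440 genes had a larger and 405 a smaller response under ABBV-075. At 50 nM ABBV-744, 66.2%, 69.4% and 69% of reads aligned to several places without IFNγ, and 59.6%, 59.1% and 57.5% with it. Whether this bears on the differences was not tested.

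Of the 65 genes, 13 had a larger and 5 a smaller response under ABBV-075 than under ABBV-744 at 50 nM, together 27.7% against 35.4% of all genes, so the count is not particular to these genes. With the GC correction there were 7 and 2. Those that passed both ways were TAP2, APOL2 and PARP10, all larger, and OPTN, an autophagy receptor that belongs to no list and was named after its values were seen, which was smaller. TAP2 rose from 46.7, 49.6 and 50.7 CPM to 209, 192 and 200 CPM with ABBV-744, a log2 fold change of 2.03 against 3.17 with ABBV-075. Its difference was 1.17 (95% interval 0.82 to 1.52, adjusted p = 0.00211) and 1.14 with the GC correction (adjusted p = 8.99e-05). APOL2 differed by 1.24 (0.80 to 1.67, adjusted p = 0.00401), PARP10 by 1.56 (0.96 to 2.17, adjusted p = 0.00436) and OPTN by -0.95 (-1.44 to -0.47, adjusted p = 0.00717). TAP1 differed by 0.91 (0.53 to 1.29, adjusted p = 0.00484), but by 0.40 with the GC correction, which missed the threshold (adjusted p = 0.0724). For IRF1 the difference was 0.37 (-0.04 to 0.79, adjusted p = 0.142). The difference at TAP2 thus passed whichever way GC content was handled, whereas at IRF1 no difference passed, within an interval that reaches 0.79. Without replicate 3 of ABBV-075 the difference at IRF1 was 0.52 and passed (adjusted p = 0.0456).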

How the data were processed

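Ribosomal RNA was depleted, and directional libraries of HepG2 cells were sequenced. Per the submitters' processing notes and the methods, the authors used CASAVA 1.8.2, Trimmomatic 0.33 and STAR 2.7.1 on hg38, and deposited the counts of reads per gene that STAR writes for each library. The strand column was used that held 98.3% to 98.5% of the stranded gene counts. Rows that name no gene were left out; reads on genes were 12.8% to 15.6% of each of the 6 files.

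From these deposited counts, edgeR 4.0.16 (R 4.3.3) was run with TMM scaling, its filter on low counts and the quasi-likelihood test on the libraries compared, with Benjamini-Hochberg adjustment over all genes tested. A response passed at an adjusted p of at most 0.05 and a log2 fold change of at least 1.5 in size, as in the methods; a difference between responses was an interaction and passed at an adjusted p of at most 0.05. Genes were named from fixed lists, from the 10 largest changes that passed, where the mean level was at least 1 (log2 CPM) and the groups did not overlap, and from the 5 smallest p-values of each difference in each direction; others are marked where named. The libraries, lists and rule were chosen with earlier results of these data known. The fits were tested on simulated data. Replicate numbers were not treated as pairs: over 10951 genes the deviations of same-numbered libraries correlated at 0.35, -0.10 and 0.28. Alternatives were DESeq2 1.42.0, other scalings and filters, both strands, a GC correction, the replicate block, all 24 libraries in 1 fit and leaving out each library. A few genes are not reported here.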

Additional observations from a re-analysis of the deposited data

Results flagged for a closer look

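These results were singled out because the response to IFNγ under ABBV-075 differed from another response in the test of the difference itself. Against the response without inhibitor, the difference in log2 fold change was 1.23 for PARP14, 0.96 for TAP2, -2.67 for IL18BP and -1.66 for C1S. Against the response under ABBV-744 at 50 nM it was 1.17 for TAP2, 1.24 for APOL2, 1.56 for PARP10, 0.91 for TAP1 and -0.95 for OPTN. TAP2 differed in both comparisons, which share the libraries with ABBV-075. No group had more than 3 libraries, so none was examined for a single library far from the rest by a rule.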

How the results depend on the processing

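In the response under ABBV-075, the 65 genes up became 39 where each library had to hold 10 counts, 111 by adjusted p alone, and 63 to 80 with 1 library left out. The 0 genes down became 2 with no filter on low counts, 2 in a fit of all 24 libraries, 1 with the replicate block, 1 with the GC correction and the block, 4 by adjusted p alone, and 0 to 2 with 1 library left out. For the difference from the response without inhibitor, 2 genes larger and 2 smaller became 7 and 7 by DESeq2, 23 and 22 with no filter, 16 and 11 with the GC correction, 17 and 10 with the GC correction and the block, and 1 to 83 and 2 to 117 with 1 library left out. For the difference from ABBV-744 at 50 nM, 1714 larger became 895 by library size alone. With the GC correction, 1714 larger and 2311 smaller became 440 and 405, with the correction and the block 515 and 486, and with 1 library left out 973 to 2476 and 1591 to 2866. Without inhibitor, 92 up became 56 at that minimum of 10 counts and 87 to 98 with 1 library left out. There, 3 down became 0 by DESeq2, 5 with no filter, 0 at that minimum, 1 with all 24 libraries, 1 with the block and 0 to 4 with 1 library left out. Of 1964 alternatives for single genes, 1887 kept their direction and side of the threshold, 45 came to pass it, 32 no longer did and 0 changed direction. The cause was not tested.

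The replicate numbers were shared between groups. Replicates 1 and 3, not 2, correlated best with their own number, and 1 of the 3 correlations was negative. Deviations from a mean of 3 are not independent, so these correlations cannot decide whether libraries of the same number were paired. With the replicate block the response under ABBV-075 had 68 genes up and 1 down. CD74, IRF2, SOCS1 and CFB, which missed the threshold without it, then passed by adjusted p, at 0.0231 to 0.0333 by edgeR's quasi-likelihood test. Low depth limits more than the genes at the floor of 3 counts per library. The filter on low counts also left out genes above it, such as GBP4, with 10 to 18 counts with IFNγ.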
